A study of Rattus norvegicus with 24 samples.

Results

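Cortex and medulla of the same lithium-treated kidneys were compared in 12 of the 24 arrays of the series, 6 of renal cortex and 6 of renal medulla, chosen by the word treated in the array titles and paired by the animal number. The rats were male Wistar animals that received lithium in their food for 6 months, at 40 mM lithium per kg of dry food for the first 7 days and 60 mM per kg thereafter, together with a salt block. The 12 control arrays came from 6 untreated male Wistar rats kept for 6 months on standard rodent diet, also with 1 cortex and 1 medulla array per animal, and were used here only where the tissue difference was set against that of untreated kidneys. RNA was taken from portions cut from frozen kidney, so each array holds all cell types of its portion, and fewer cells of a type cannot be told apart from less RNA per cell. Each rat is a separate animal, and the pairs of arrays are the replicates.

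The kidney cortex holds the glomeruli, the convoluted proximal tubules that reabsorb most filtered solute, and the distal convoluted tubules. The medulla holds the straight limbs of the loop of Henle, the vasa recta and the collecting ducts, whose cells live in a salt- and urea-rich interstitium and fill with organic osmolytes. Lithium enters principal cells of the collecting duct through the epithelial sodium channel and is known for causing water-losing nephrogenic diabetes insipidus and, after long exposure, cystic collecting ducts and interstitial fibrosis. The question asked here was which genes that mark cortex or medulla still did so after lithium.

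A pair of arrays has to be named before any result. The lithium cortex array of animal 17 equalled the mean of its group at every transcript cluster (largest difference 6.67e-05 on the log2 scale), so it carries no value of its own, and the lithium tests rest on 5 independent cortex arrays although 6 pairs entered them. Standard errors and p-values over 6 pairs may therefore be too small, and counts without animal 17 are given beside the main ones. The lithium cortex array of animal 19 stood apart: the mean of its epithelial injury list was 8.22 against 6.20 to 6.86 in the other lithium cortex arrays, and that of its fibroblast and matrix list was 8.90 against 6.91 to 7.58. The array medians were 5.75 to 5.83 in lithium cortex and 6.16 to 6.22 in lithium medulla, and without centring the median cluster lay 0.50 higher in medulla. Levels below are the deposited log2 intensities, which therefore sit on slightly different scales in the tissues. Differences are medulla minus cortex within each rat after each array was centred on its median, so that a difference taken from the printed levels favours medulla by more than the difference given. Fold values are 2 raised to these centred differences.

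Among the 15663 transcript clusters that reached a log2 intensity of 6 on 4 or more arrays out of the 6 for cortex or for medulla, 5564 (35.5%) were higher and 3461 (22.1%) lower in lithium medulla at an adjusted p under 0.05 in limma. The median difference over all clusters was 0.09. After centring, the 6 medulla and 6 cortex arrays did not overlap at 2875 clusters that were higher (18.4%) and 1933 that were lower (12.3%) in medulla. The split depended on centring, since the deposited values taken as they are gave 11474 higher and 1480 lower clusters. Without animal 17 the counts were 5375 and 3244.

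Proximal tubule genes gave the widest tissue differences. Of the 30 genes of this list, 27 were measured above the filter and all 27 were lower in medulla, by a median of 3.75 on the log2 scale, against a median of 0.09 over all clusters. The mean of all its genes on the array was 9.96 to 10.59 on the lithium cortex arrays and 6.77 to 7.84 on the lithium medulla arrays, so the labelled tissues held no common value.

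The HNF1 transcription factors drive many proximal tubule genes, and the letters GTTAAT, a part of the site they recognise, were counted in the 250 bases before and 50 bases after each gene's start in RefSeq (build GRCr8) on both strands, the other strand reading ATTAAC. They stood in 7 of the 28 proximal tubule promoters on hand (25%), in 9 of 41 promoters of the cortex markers chosen in control rats that are described below (22%), in 0 of 31 promoters of the medulla markers chosen likewise, and in 7.37% of all 27457 promoters. A match is a description of letters, not a bound site. The 250 bases before the start are printed for a phosphate, an organic anion and an amino acid transporter of the list. These were picked from the 7 proximal tubule promoters that held the letters, and the matches are in capitals.
Slc34a1, chr17:9238984-9239233, minus strand: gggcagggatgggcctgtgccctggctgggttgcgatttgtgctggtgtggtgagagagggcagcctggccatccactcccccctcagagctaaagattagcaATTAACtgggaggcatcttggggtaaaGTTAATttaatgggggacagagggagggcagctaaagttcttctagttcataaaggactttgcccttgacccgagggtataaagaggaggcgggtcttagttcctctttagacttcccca
Slc22a8, chr1:214927034-214927283, plus strand: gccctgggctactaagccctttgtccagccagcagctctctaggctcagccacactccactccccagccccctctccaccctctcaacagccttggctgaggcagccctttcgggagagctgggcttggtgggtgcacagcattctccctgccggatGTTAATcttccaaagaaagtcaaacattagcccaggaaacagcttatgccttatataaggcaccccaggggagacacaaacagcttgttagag
Slc6a19, chr1:31414494-31414743, plus strand: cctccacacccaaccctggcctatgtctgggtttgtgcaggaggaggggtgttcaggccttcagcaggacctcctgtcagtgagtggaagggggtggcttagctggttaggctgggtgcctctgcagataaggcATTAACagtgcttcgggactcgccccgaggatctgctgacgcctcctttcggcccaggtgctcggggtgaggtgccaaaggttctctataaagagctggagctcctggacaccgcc

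Slc34a1, the sodium phosphate cotransporter of the brush border, read 11.71 at its lowest, 12.08 at the median and 12.15 at its highest on the lithium cortex arrays, and 7.59, 8.03 and 8.87 on the medulla arrays. No medulla array came near a cortex array. The difference was -4.29 ± 0.165 (SE, 6 pairs; limma adjusted p = 6.94e-08), a level 19.5-fold higher in cortex. Slc22a8, an organic anion transporter, ran from 10.42 to 11.14 in cortex and from 6.09 to 7.74 in medulla, a difference of -4.45 ± 0.124. Slc6a19, the neutral amino acid transporter, ran from 8.74 to 9.97 and from 5.38 to 6.40 (-4.04 ± 0.0857). The monocarboxylate transporter Slc5a12 had the largest difference of the list, at -4.78 ± 0.151, and the sodium proton exchanger Slc9a3 the smallest, at -1.50 ± 0.483. The gluconeogenic enzyme G6pc1 was 21.9-fold higher in cortex. Of 7 markers of the straight proximal tubule, which reaches into the outer medulla, 3 were measured: the glucose transporter Slc5a1 (-2.14) and the monocarboxylate transporter Slc5a8 (-3.02) were lower in medulla, and Slc7a13 differed by -0.28 and did not pass.

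**Figure D1:**
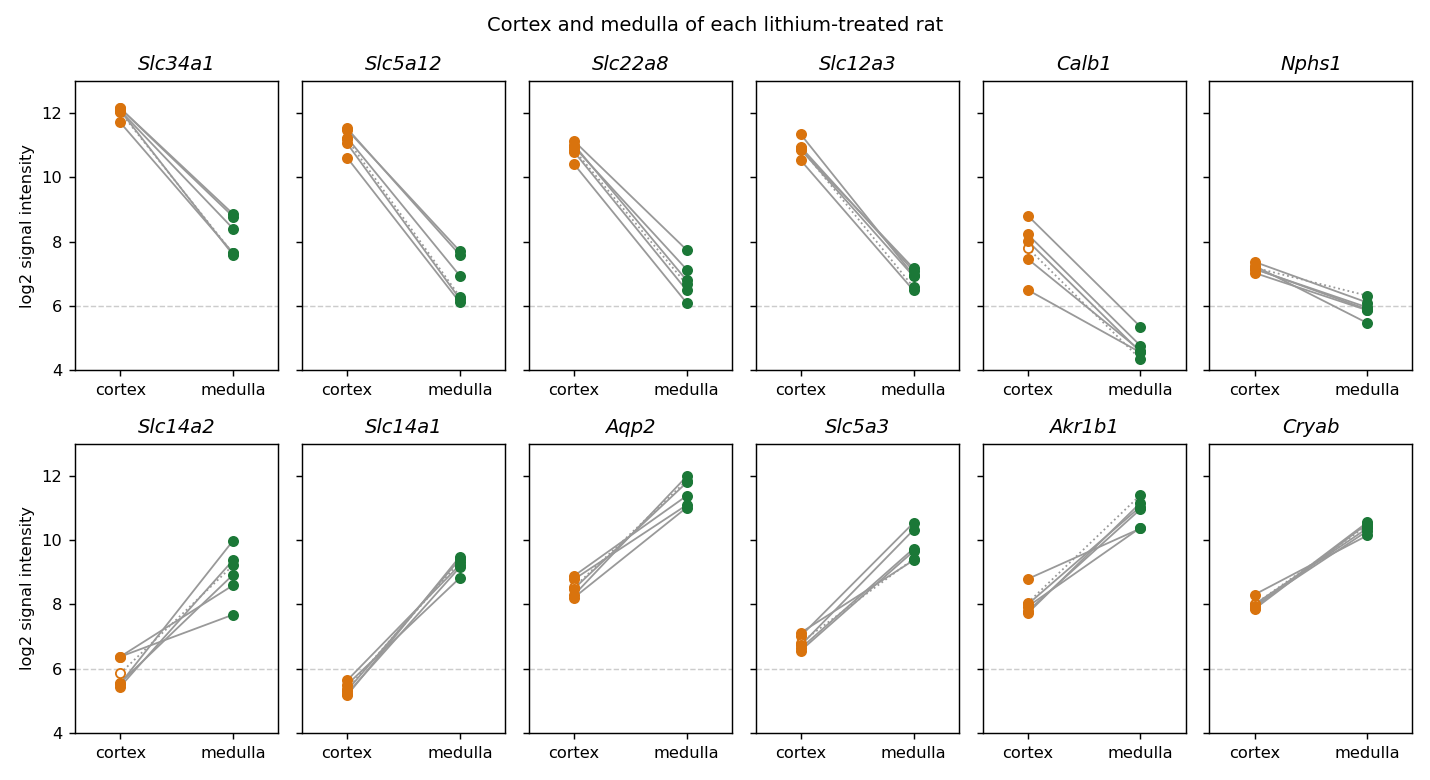
Deposited log2 signal intensity (vertical axis) of 12 named genes in cortex and medulla of the 6 lithium-treated rats; each line joins the arrays of 1 rat, open circles with dotted lines mark the cortex array of animal 17, which equals its group mean, and the dashed line is the filter at 6. Slc34a1, Slc5a12, Slc22a8, Slc12a3, Calb1 and Nphs1 were lower in medulla in all 6 rats, and Slc14a2, Slc14a1, Aqp2, Slc5a3, Akr1b1 and Cryab higher in all 6.

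Metabolic and transport genes led the differences in favour of cortex. The 10 largest among named genes whose arrays did not overlap were Spink1l, Akr1c1, Acmsd, Lrrc19, Slc5a12, Spp2, Cltrn, Ugt2b35, Slc13a1 and Cyp2e1, with differences from -5.23 for Spink1l to -4.52 for Cyp2e1. Akr1c1, an aldo-keto reductase, fell from a median of 9.39 in cortex to 4.57 in medulla, a level 35.4-fold lower. Acmsd, an enzyme of tryptophan breakdown, ran from 9.73 to 10.69 in cortex and from 5.22 to 6.72 in medulla (-4.87 ± 0.128). Slc13a1, the sulphate transporter, and Cltrn, the collectrin that carries amino acid transporters to the membrane, were 23.5-fold and 24.9-fold higher in cortex. Fatty acid oxidation, the main fuel pathway of proximal tubules, went the same way: 10 of the 11 measured of 12 listed genes were lower in medulla, with a median difference of -0.79. Among all clusters 22.1% were lower. Ehhadh, a peroxisomal enzyme, differed most (-2.86 ± 0.196), followed by the transcription factor Ppara (-1.87 ± 0.214) and Acaa2 (-1.60 ± 0.115), and the mitochondrial gatekeeper Cpt1a at -0.09 did not pass.

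Glomerular genes marked cortex less uniformly. Of 15 podocyte genes 10 were measured, of which 5 were lower and 3 higher in medulla, with a median difference of -0.53. Among all clusters 22.1% were lower and 35.5% higher. Nphs1, the nephrin of the slit diaphragm, ran from 7.03 to 7.37 in lithium cortex and from 5.47 to 6.32 in medulla, with no overlap (-1.66 ± 0.109, limma adjusted p = 1.89e-06). The phosphatase Ptpro (-1.74 ± 0.135) and the chloride channel protein Clic5 (-1.53 ± 0.112) differed by about as much. The 3 genes higher in medulla were Plce1 (0.57), Cdkn1c (0.95) and Tcf21 (0.46), and Synpo (-0.17) and Kirrel1 (-0.26) did not pass. Podxl, the podocalyxin that podocytes share with endothelium, ran from 9.16 to 9.52 in cortex and 8.54 to 9.39 in medulla, and was lower in medulla after centring (-0.81 ± 0.119). Of the 6 glomerular capillary and juxtaglomerular genes 4 were measured: Agtr1b, an angiotensin receptor, was higher in medulla (0.47 ± 0.0839) and Ehd3 (0.12), Plat (0.07) and Sost (-0.10) did not pass. All 3 had passed in control rats, Plat at 1.45, Ehd3 at 0.66 and Sost at -0.33.

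Distal convoluted and connecting tubule genes fell apart into those that marked cortex and those that did not. Of 14 listed genes 11 were measured, and 6 of these were lower and 2 higher in medulla, against 22.1% and 35.5% of all clusters. Slc12a3, the thiazide-sensitive sodium chloride cotransporter, read 10.53, 10.89 and 11.34 (lowest, median and highest) in lithium cortex and 6.48, 6.93 and 7.17 in medulla, a difference of -4.45 ± 0.103. Calb1, the calcium-binding calbindin, ran from 6.5 to 8.81 in cortex, with animal 19 lowest, and from 4.34 to 5.35 in medulla (-3.51 ± 0.201). Kl, the klotho coreceptor (-2.53 ± 0.319), Klk1, tissue kallikrein (-2.34 ± 0.141), Cnnm2, a magnesium handling protein (-0.94), and S100g, a small calcium-binding protein (-0.75), were also lower in medulla. Against these, 2 proteins of calcium reabsorption, at the entry and the exit side of the distal cell, did not separate the tissues. The calcium channel Trpv5 ran from 6.83 to 7.56 in cortex and from 6.33 to 8.20 in medulla, with the medulla array of animal 6 lowest and those of animals 18 and 19 highest, and the groups overlapped (-0.07 ± 0.234, limma adjusted p = 0.813). The sodium calcium exchanger Slc8a1 ran from 6.51 to 7.39 in cortex and from 6.70 to 7.42 in medulla, also with overlap (-0.19 ± 0.163, adjusted p = 0.343). The related channel Trpv6 (0.89) and the kinase Wnk4 (0.31) were higher in medulla, and the calcium pump Atp2b1 (-0.09) did not pass.

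**Figure D2:**
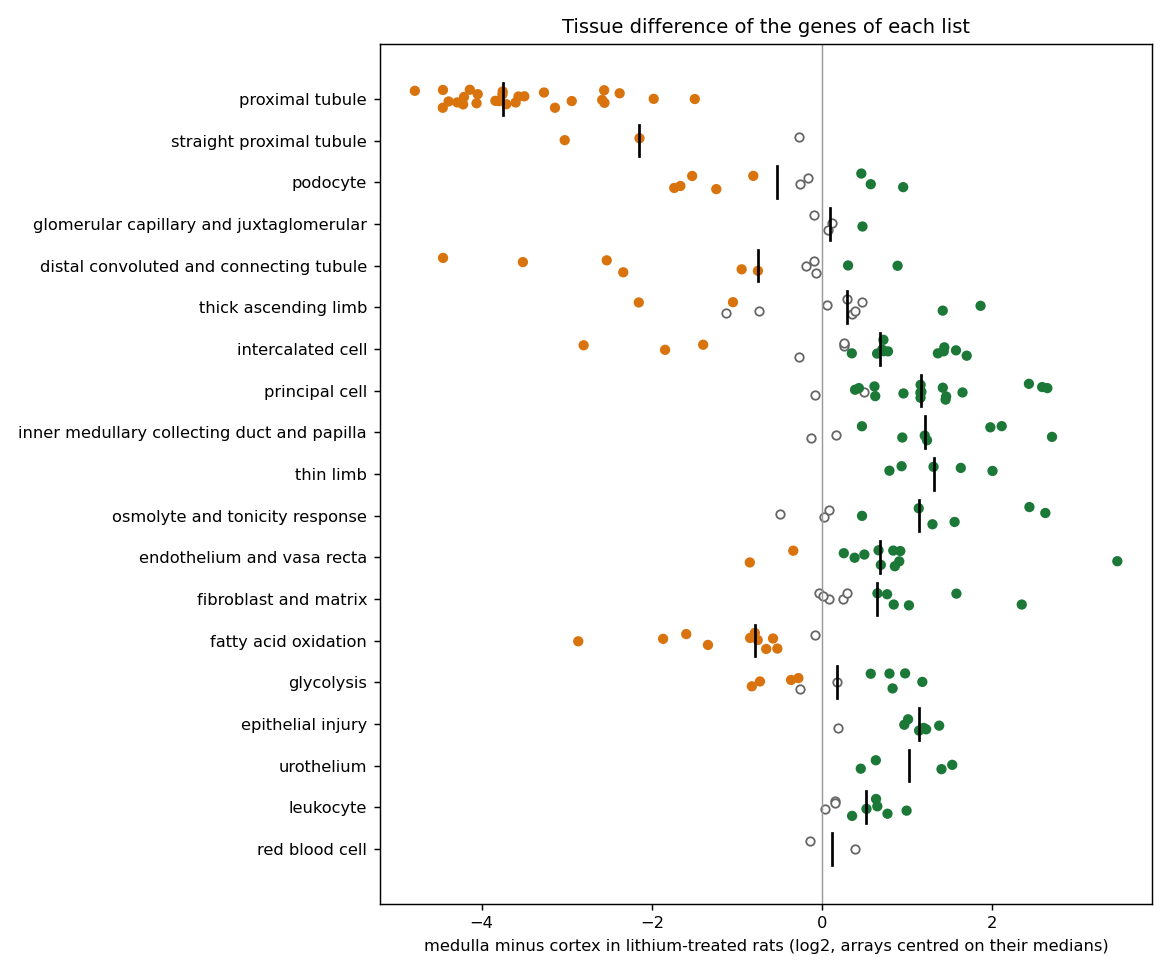
Medulla minus cortex difference in lithium-treated rats (log2, arrays centred on their medians, horizontal axis) of each measured gene of 19 lists; green points passed as higher and orange points as lower in medulla at a limma adjusted p under 0.05, open points did not pass, and black bars are list medians. All 27 proximal tubule genes lie to the left, 16 of 18 principal cell genes to the right with filled points, and the distal tubule genes spread from -4.45 to 0.89.

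Collecting duct genes marked medulla. Of 20 principal cell genes 18 were measured, and 16 were higher in medulla and 0 lower (median difference 1.16), against 35.5% and 22.1% of all clusters. Aqp2, the vasopressin-regulated water channel, ran from 8.21 to 8.89 in lithium cortex and from 11.02 to 11.99 in medulla, with a difference of 2.58 ± 0.170 (limma adjusted p = 1.93e-06). Fxyd4, a sodium pump regulator, ran from 6.40 to 6.93 and from 9.14 to 10.38 (2.65 ± 0.153), and Elf5, an epithelial transcription factor, from 4.58 to 4.99 and from 7.17 to 8.06 (2.43 ± 0.125). None of these 3 genes had overlapping arrays. Aqp4, a basolateral water channel (1.65 ± 0.204), and Hsd11b2, the enzyme that shields the mineralocorticoid receptor from glucocorticoid (1.15 ± 0.182), were also higher. Among the subunits of the epithelial sodium channel, through which lithium enters, Scnn1g was higher in medulla (1.16), while Scnn1a (-0.09) and Scnn1b (0.50) did not pass.

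Intercalated cells, which secrete acid or base, lie in both tissues. Of 19 listed genes 18 were measured, and 11 were higher and 3 lower in medulla (median 0.68), against 35.5% and 22.1% of all clusters. Slc26a7, an anion exchanger of acid-secreting cells, ran from 4.45 to 5.66 in lithium cortex and from 6.17 to 8.14 in medulla (1.70 ± 0.319), and Aqp6 (1.57), the ammonia transporter Rhbg (1.44) and Slc4a1, the anion exchanger of acid-secreting cells (1.36), went the same way. The 3 genes lower in medulla were Slc26a4, the pendrin of base-secreting cells (-2.80 ± 0.241), Insrr, an alkali-sensing receptor (-1.84 ± 0.271), and the transcription factor Hmx2 (-1.4). For Slc26a4 and Insrr the medulla array of animal 18 was far above the others, at 8.06 and 7.67, and overlapped the cortex arrays. The mean of the list was 8.83 to 9.53 on lithium medulla arrays, 7.84 on the cortex array of animal 19 and at most 8.84 on the other cortex arrays.

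Most deep medullary genes were higher in medulla. Of the 11 genes of inner medullary collecting duct and papilla 9 were measured, and 7 were higher in medulla and 0 lower (median 1.21). The shares among all clusters were 35.5% higher and 22.1% lower. Slc14a2, the urea transporter of the collecting duct, read 5.44, 5.71 and 6.37 (lowest, median and highest) in lithium cortex and 7.68, 9.07 and 9.98 in medulla, with the medulla array of animal 19 lowest and no overlap (2.70 ± 0.343, a level 6.5-fold higher). The calcium-binding S100a6 (2.11 ± 0.147) and the small heat shock protein Cryab (1.98 ± 0.104) were next, and the keratins Krt8 (-0.13) and Krt18 (0.17, against 1.33 in control rats, where it passed) did not pass. Of the 8 thin limb genes 5 were measured, and all 5 were higher in medulla, led by the transcription factor Prox1 (2.00 ± 0.148), the activin inhibitor Fst (1.63 ± 0.261) and the Notch ligand Jag1 (1.31 ± 0.0860). The mean of the thin limb genes on the array was 5.34 to 5.89 in lithium cortex, below the filter of 6, and 6.68 to 7.37 in medulla. Members low in cortex were kept through medulla alone, so this count is partly set by the filter. Slc14a1, the urea transporter of descending vasa recta, ran from 5.17 to 5.63 in cortex and from 8.82 to 9.49 in medulla (3.47 ± 0.126, a level 11.1-fold higher). In the remaining endothelial genes differences were smaller: 10 of the 12 measured of 16 were higher in medulla with a list median of 0.68, and Flt1, a growth factor receptor (-0.34), and Aqp1, a water channel also of proximal tubule (-0.85), were lower.

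Osmolyte genes, which let cells hold water against the salty interstitium, also marked medulla: of 12 listed genes 9 were measured, and 6 were higher and 0 lower (median 1.14). The share higher among all clusters was 35.5%. Slc5a3, the inositol transporter, ran from 6.56 to 7.12 in lithium cortex and from 9.38 to 10.54 in medulla (2.62 ± 0.168), with no overlap. Akr1b1, the aldose reductase that makes sorbitol, ran from 7.72 to 8.79, with animal 19 highest, and from 10.36 to 11.40 (2.44 ± 0.214). Nfat5, the transcription factor that answers to tonicity, was 2.94-fold higher in medulla (1.56 ± 0.0882). The taurine transporter Slc6a6 (0.08), the heat shock protein Hsph1 (0.02) and Gpcpd1, which breaks down the osmolyte glycerophosphocholine (-0.49), did not pass. The letters TGGAAA, the core of the tonicity element that Nfat5 binds, stood on either strand in 3 of 10 osmolyte promoters and in 22.4% of all promoters.

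Thick ascending limb and glycolysis genes did not mark 1 tissue. Of 14 thick ascending limb genes 11 were measured, and 2 were higher, 2 lower and 7 did not pass. The list mean was 6.75 and 7.5 on the lithium medulla arrays of animals 17 and 18 and 8.63 to 9.27 on the other 4, and without animal 17 the count of higher genes was 4. Slc12a1, the sodium potassium chloride cotransporter of this limb, had a medulla SD of 2.67 and a difference of 0.35 that did not pass. Cldn19, a tight junction protein (1.86 ± 0.152), and Bsnd, a chloride channel subunit (1.42 ± 0.200), were higher in medulla, and Egf, the epidermal growth factor made in this limb (-2.15 ± 0.537), and the calcium-sensing receptor Casr (-1.05) were lower. Egf ran from 5.49, in animal 17, to 10.51 on the medulla arrays and overlapped the cortex arrays. Of 12 glycolysis genes 11 were measured, and 5 were higher in medulla, led by the glucose transporter Slc2a1 (1.18 ± 0.109), Pfkp (0.98 ± 0.172) and Pkm (0.83 ± 0.112), and 4 were lower, namely Eno1 (-0.82), Pgk1 (-0.73), Gpi (-0.36) and Aldoa (-0.28). The shares among all clusters were 35.5% higher and 22.1% lower. The count of lower glycolysis genes was 2 without centring, after quantile normalization over both tissues, and with ranks.

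The 10 largest differences in favour of medulla among named genes without overlap were Lypd2, Slc14a1, Upk3bl1, Ehf, Nrip3, Alx1, Vash2, Tbx3, Nupr1 and Sim2, from 3.47 for Lypd2 to 2.83 for Sim2. Lypd2, a small surface protein, ran from 5.38 to 5.78 in lithium cortex and from 8.94 to 9.72 in medulla, a level 11.1-fold higher. The epithelial transcription factor Ehf ran from 5.56 to 6.00 and from 9.13 to 9.82 (9.51-fold). Alx1, Tbx3 and Sim2 are developmental transcription factors and were 7.96-fold, 7.19-fold and 7.09-fold higher in medulla. Nupr1, a stress-responsive nuclear protein, was 7.14-fold higher, and its cortex arrays spread from 5.67 to 7.18.

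Markers of urothelium and some markers of leukocytes were higher in the medulla portions, and those of red blood cells did not pass. Of 11 urothelial genes 4 were measured, and all 4 were higher there, with Upk1a, a uroplakin of the bladder and pelvis lining, at 5.17 to 5.43 in lithium cortex and 6.39 to 7.69 in medulla (1.53 ± 0.158) and the basal keratin Krt15 at 1.4 ± 0.147. The mean of the urothelial list was 5.10 to 5.41 in cortex and 5.79 to 6.36 in medulla. Upk1a thus passed the filter of 6 through medulla alone, and the list mean in cortex lay below that filter. The count of 4 out of 4 is therefore partly set by the filter. Of 14 leukocyte genes 9 were measured, and 6 were higher in medulla and 0 lower (median 0.52), against 35.5% and 22.1% of all clusters. The macrophage markers Adgre1 (0.99 ± 0.191) and Cd68 (0.77 ± 0.150) and the pan-leukocyte Ptprc (0.65 ± 0.116) led. The leukocyte mean ran from 6.76 to 7.25 in medulla and from 5.76 to 6.23 in cortex apart from animal 19, at 7.10. Of 3 red blood cell genes 2 were measured, Hbb (0.38) and Alas2 (-0.15). Whether these cells contributed to other medulla differences was not tested.

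Injury and matrix genes differed in part. Of 10 epithelial injury genes 7 were measured, and 6 were higher in medulla, against 35.5% of all clusters, among them the adhesion molecule Vcam1 (1.38 ± 0.167), the lectin Lgals3 (1.22 ± 0.148), the annexin Anxa1 (1.19 ± 0.171) and Cd44. Cd44, the hyaluronan receptor, ran from 6.32 to 7.12 in lithium cortex, with animal 19 highest, and from 7.72 to 8.48 in medulla (1.14 ± 0.102). Of 15 fibroblast and matrix genes 11 were measured, and 6 were higher, with a median difference of 0.65 against 0.09 over all clusters. Ccn3, a matricellular protein also called NOV, ran from 6.77 to 7.62 in cortex and from 9.01 to 10.24 in medulla, a level 5.08-fold higher (2.35 ± 0.189, limma adjusted p = 7.43e-06). Fibronectin, Fn1, ran from 7.23 to 9.52 in cortex, with animal 19 highest, and from 9.25 to 10.31 in medulla, with overlap (1.58 ± 0.245). Pdgfra, a fibroblast receptor (1.02 ± 0.153), and Mmp2, a matrix metalloproteinase (0.65 ± 0.124), were higher too, while the collagens Col1a1 (-0.04), Col1a2 (0.08) and Col3a1 (0.25) did not pass. Tgfb2, a growth factor, had nearly equal deposited levels, 6.63 to 6.96 in cortex and 6.45 to 6.99 in medulla, and its difference of -0.45 ± 0.101 passed with centring and not without it. Leaving out single rats gave 4 to 6 higher injury genes (4 without 18, 21 or 22), 6 to 7 fibroblast genes and 5 to 7 leukocyte genes, the highest counts being those without animal 19.

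**Figure D3:**
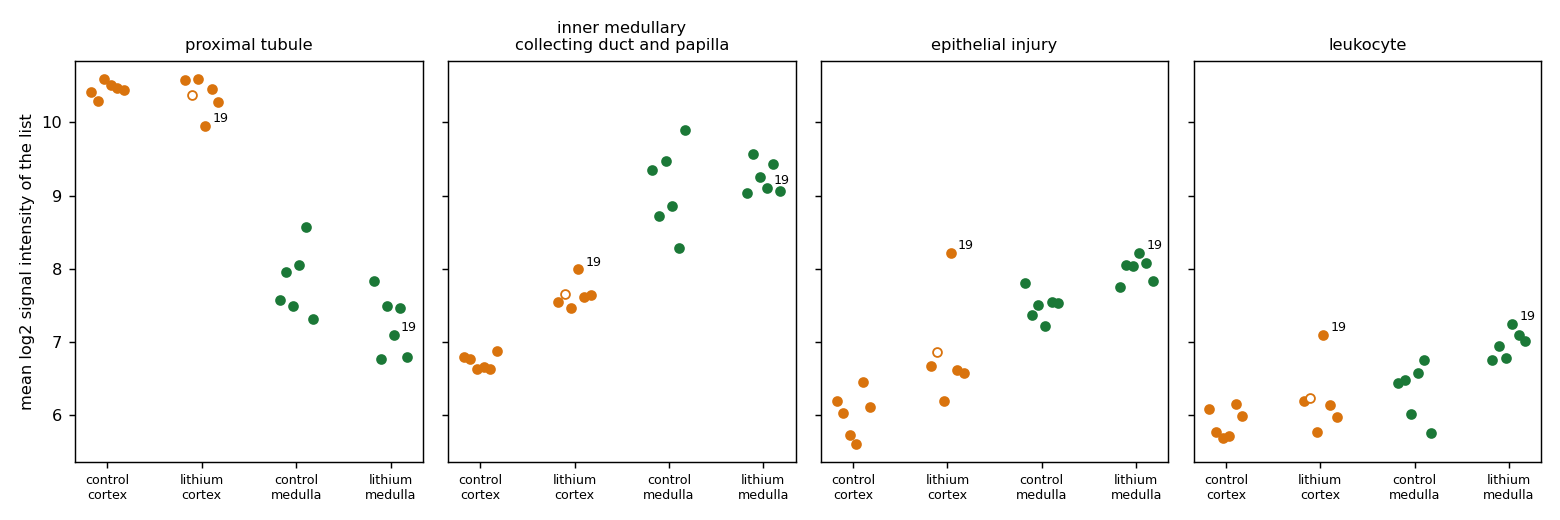
Mean log2 signal intensity (vertical axis) of all genes on the array of 4 lists, 1 point per array, in control and lithium cortex (orange) and control and lithium medulla (green); arrays of animal 19 are numbered and the open circle is the cortex array of animal 17. Proximal tubule means of 6.77 to 7.84 in lithium medulla lie below the cortex means of 9.96 to 10.59, and the cortex array of animal 19 lies at the level of the medulla arrays for the injury list.

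To ask whether lithium kidneys kept the tissue markers of untreated kidneys, markers were ranked on the control arrays and read in the lithium arrays. They were taken among the clusters kept by the filter, which was set on the lithium arrays. A control marker that fell below the filter in both lithium tissues could therefore not be chosen. In control rats 6348 clusters (40.5%) were higher and 3329 (21.3%) lower in medulla. From these, the 50 named genes with the largest difference in each direction and no overlap were taken. All 50 medulla markers were higher in medulla in lithium rats and passed, 44 of them with no overlap, and all 50 cortex markers were lower and passed, 49 with no overlap. When the markers were chosen anew with no filter, 100% of those of each tissue also kept their direction and passed. Over all clusters, 7136 passed in the same direction in both diets and 49 in opposite directions.

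The sizes of these differences were not kept alike. For the medulla markers the median difference was 3.07 in control and 2.12 in lithium rats, the median ratio of lithium to control difference was 0.68 (0.27 to 1.15), and 47 of 50 had a ratio under 1. For the cortex markers the median size was 3.58 in control and 4.09 in lithium rats, the median ratio was 1.14 (0.60 to 1.29), and 8 of 50 had a ratio under 1. Genes taken for a large control difference are favoured to have a smaller one in other animals, so the ratios are given as a description. The median ratio of each lithium rat ran from 0.57 to 0.79 for medulla markers and from 1.01 to 1.20 for cortex markers, with animal 19 lowest in both. Without centring the median ratios were 0.73 and 1.14, and with quantile normalization 0.70 and 1.12.

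The centred levels show where the sizes moved. In medulla, 45 of 50 medulla markers were lower in lithium than in control rats (median -0.63), and in cortex 37 of 50 were higher (median 0.27). The cortex markers were lower in lithium medulla for 49 of 50 (median -0.57) and lower in lithium cortex for 32 of 50 (median -0.14). The proximal tubule mean on the medulla arrays was 7.31 to 8.57 in control and 6.77 to 7.84 in lithium rats. This list and the cortex markers share genes, among them Slc5a12, Slc22a8 and Slc6a19, so that they moved together is partly given in advance. The part of the list in the larger cortex marker differences was not tested.

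**Figure D4:**
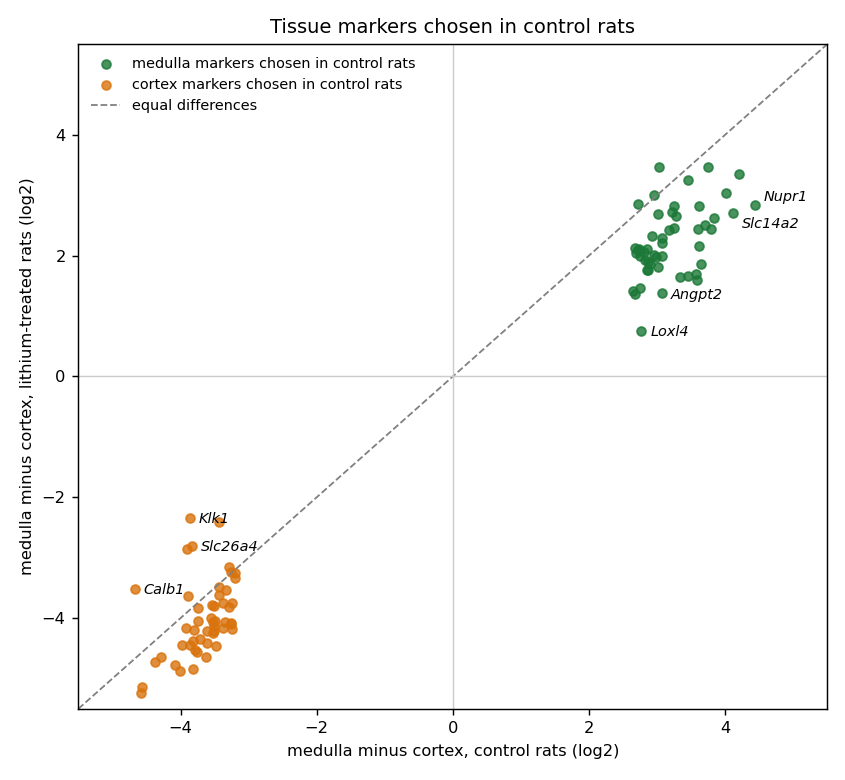
Medulla minus cortex difference (log2, arrays centred on their medians) in control rats (horizontal axis) and lithium-treated rats (vertical axis) of the 50 medulla (green) and 50 cortex (orange) markers chosen in control rats; the dashed line marks equal differences. No marker changed sign, 47 of 50 medulla markers lie below the line on the side of smaller differences, and Klk1, Slc26a4 and Calb1 are among the 8 cortex markers whose difference was smaller in lithium rats.

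The medulla markers with the lowest ratios were Loxl4, a lysyl oxidase (0.76 in lithium against 2.77 in control rats), Rab9b, a trafficking protein (1.59 against 3.59), Angpt2, an angiopoietin (1.38 against 3.07), Vcan, the proteoglycan versican (1.69 against 3.58), and Pcsk6, a proprotein convertase (1.65 against 3.45). Rab9b read 4.91 and 5.76 on the medulla arrays of animals 19 and 22 and 7.04 to 8.23 on the other 4, and its lithium difference no longer passed without animal 21. The cortex markers with the lowest ratios were Klk1 (-2.34 against -3.86), Sfrp2, a Wnt antagonist (-2.41 against -3.43), Klk1b3 (-2.85 against -3.91), Slc26a4 (-2.80 against -3.83) and Calb1 (-3.51 against -4.68). Klk1 and Klk1b3 belong to a family of near-identical kallikrein genes that array probes may share. Of the osmolyte and urea genes, Slc5a3 stood at 2.62 against 3.84, Akr1b1 at 2.44 against 3.79 and Slc14a2 at 2.70 against 4.11. Aqp2 went the other way, at 2.58 in lithium and 1.77 in control rats.

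Whether the tissue difference itself differed between diets was tested with limma over the 12 rats. The lithium minus control change was above 0 at 114 clusters (0.728%) and below 0 at 307 (1.96%), and 15 medulla markers and 8 cortex markers were among them. A change below 0 is a smaller difference in favour of medulla or a larger one in favour of cortex, as for the cortex marker Acmsd (-0.86). The scan group of each rat's medulla array, recovered from the deposited values, was then added to the fit. With it 8 clusters remained, all among the former calls. None of the 100 markers was among these clusters, and 61 of the markers had an unadjusted p under 0.05 in that fit. At an unadjusted p under 0.05 there were 3734 clusters without and 2754 with the scan group. Leaving out 1 rat at a time gave 22 to 161 clusters above and 26 to 590 below, with the fewest in both directions without lithium rat 17 and the most below without control rat 29. Among the 94 genes chosen by the rules given below, the change passed for 28, of which 1 to 21 were lost when 1 rat was left out. Without rat 17 the 7 that passed were Adm2, Ccl28, Nt5c1a, Anxa5, Ccn3, Klk1 and Trpv5.

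Over the 19 lists, 20 genes passed as tissue markers in control rats and not in lithium rats. Over all clusters this held for 2492 of the 9677 that passed in control rats, so such a loss is not particular to the lists. A lost call need not be a change: Gpcpd1 is among the 20, at -0.49 in lithium and -0.46 in control rats. Beside Trpv5, Slc8a1, Plat, Ehd3, Sost and Krt18 these included the podocyte gene Synpo (-0.17 in lithium against -0.44 in control rats), the nitric oxide synthase Nos1 (0.06 against 1.18), the sodium channel subunits Scnn1a (-0.09 against -1.36) and Scnn1b (0.50 against -0.93), the hexokinase Hk2 (0.18 against 1.31) and the fibroblast receptor Pdgfrb (0.29 against 0.96). The change itself passed for 2 of the 20, Trpv5 and Slc8a1, and for neither with scan group, while 15 had an unadjusted p under 0.05.

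Trpv5 and Slc8a1 marked cortex in control rats and did not in lithium rats, although neither change passed with scan group. Trpv5 was 2.19 lower in medulla in control rats, where its 6 differences ran from -2.83 to -1.34, against -1.44 to 0.76 in lithium rats, a change of 2.12 ± 0.342 (limma adjusted p = 0.0146, and 0.0700 with scan group). For Slc8a1 the control differences ran from -2.68 to -0.66 and the change was 1.81 ± 0.312 (0.0176 and 0.0741), which missed the threshold without animal 17 (0.0511). They differed in where the level moved. Slc8a1 averaged 8.32 in control and 6.93 in lithium cortex, and 6.68 and 7.14 in medulla. Trpv5 averaged 6.81 and 7.19 in cortex, and 4.98 in control and 7.53 in lithium medulla. Klk1 (1.53 ± 0.235, adjusted p = 0.0126 and 0.0670 with scan group), Calb1 (1.16 ± 0.277, 0.0446 and 0.132) and Trpv6 (0.98 ± 0.153, 0.0130 and 0.0700) changed in the same direction, which makes 5 of the 11 measured distal convoluted and connecting tubule genes.

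Among principal cell genes, Hsd11b2 moved toward medulla. It differed by 1.15 in lithium rats and by -1.0 in control rats, where single rats ran from -3.06 to 0.41 (change 2.16 ± 0.5, limma adjusted p = 0.0419, and 0.125 with scan group). For Aqp2 the change of 0.81 ± 0.288 did not pass (0.117). In intercalated cells the list median was 0.68 in lithium and -0.64 in control rats, in which 2 genes were higher and 7 lower in medulla. The control medulla arrays of animals 15 (7.39) and 30 (6.79) stood below the other 4 (8.31 to 8.84) in the mean of this list. The same arrays were lowest in the thick ascending limb mean (8.4 and 7.5 against 9.1 to 9.9). They were highest in the inner medullary collecting duct and papilla mean (9.5 and 9.9 against 8.3 to 9.4). Whether the medulla portions differed in depth, and its part in the changes between diets, was not tested. Of the 18 single genes 0 passed the test of the change, against 12 at an unadjusted p under 0.05 with or without scan group, the nearest being Slc4a9 (adjusted p = 0.0502) and Atp6v1g3 (0.0511). Ccn3 differed by 0.77 in control and 2.35 in lithium rats (change 1.58 ± 0.256, adjusted p = 0.0146, and 0.0707 with scan group), its medulla mean being 5.91 in control and 9.91 in lithium rats and its cortex mean 4.78 and 7.16. Cd44 (1.14 against 1.28) and Mmp2 (0.65 against 0.31) did not pass this test.

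Some medullary and vascular markers changed the opposite way. The change was -1.21 ± 0.256 for Slc5a3 (limma adjusted p = 0.0319, and 0.106 with scan group), -1.68 ± 0.376 for Aqp4 (0.0383 and 0.115), -1.01 ± 0.221 for Cryab (0.0360 and 0.115) and -0.96 ± 0.222 for Prox1 (0.0419 and 0.129). Among endothelial genes the sialomucin Emcn (-1.01 ± 0.208) and the junction protein Esam (-0.92 ± 0.184) passed without scan group and not with it (0.105 and 0.104). For Slc14a2 the change of -1.41 ± 0.551 did not pass (0.144).

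Of the 8 clusters that passed with the scan group in the fit, 4 carry a gene name and were singled out after their values were seen. Adm2, the peptide hormone intermedin, was 1.57 lower in medulla in control rats, with single rats from -1.82 to -1.18. In lithium rats it differed by 0.38, from -0.23 to 1.06, and did not pass (limma adjusted p = 0.0704). The change of Adm2 was 1.95 ± 0.203 (adjusted p = 0.0102 with scan group in limma). Its mean rose in medulla, from 6.29 in control to 8.34 in lithium rats, and was 7.5 and 7.56 in cortex. Ccl28, a mucosal chemokine, was lower in medulla in all 6 control rats (-0.87 to -0.26) and higher in all 6 lithium rats (0.32 to 1.55), a change of 1.69 ± 0.192 (0.0177). Nt5c1a, an enzyme that makes adenosine from AMP, went from -1.42 to -0.12 (0.0325). Anxa5, a phospholipid-binding annexin, marked medulla in control rats, at 2.02. In lithium rats it differed by 0.37 and narrowly did not pass (limma adjusted p = 0.0534). The change was -1.65 ± 0.226 (0.0408 with scan group), and the cortex mean of Anxa5 was 7.18 in control and 8.20 in lithium rats.

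**Figure D5:**
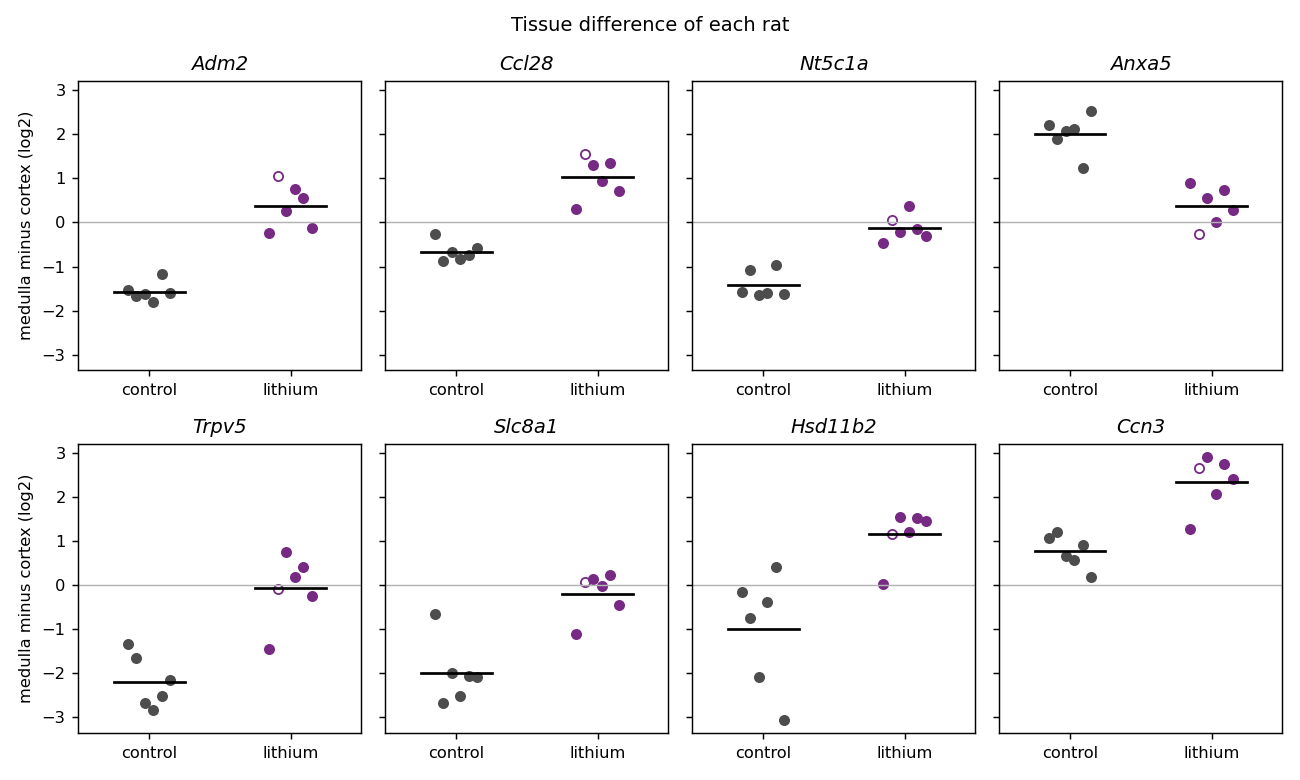
Medulla minus cortex difference (log2, arrays centred on their medians, vertical axis) of each control and each lithium-treated rat for 8 genes; each point is 1 rat, bars are group means, and the open point is animal 17, whose cortex array equals its group mean. The control and lithium rats do not overlap for Adm2, Ccl28, Nt5c1a, Anxa5 and Ccn3, and Trpv5 spreads from -1.44 to 0.76 in lithium rats.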

How the data were processed

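Each tissue of each animal was hybridised to 1 Affymetrix rat array. Values for 28894 transcript clusters were used as the authors deposited them, as log2 intensities that had been background-corrected with RMA, quantile-normalized and median-polished, adjusted for scan date by analysis of variance, and averaged from probe sets to transcripts. RMA, Partek and rn4 are named in the submitters' processing notes, and no array coordinates were used. Since no source used here gives the scan dates, scan groups were recovered from directions without residual variance, in each tissue apart: animals 1, 6, 13 and 17, animals 15, 16, 18 and 19, and animals 21, 22, 29 and 30, except that cortex 17 stood alone. Removal of scan date shrinks the spread that a test sees, so fits with scan group were run as an alternative. These fits gave each rat the group of its medulla array, so the separate group of cortex 17 did not enter them. Levels of different tissues are not on a shared scale. The number of arrays limits precision.

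The platform annotation gave 1 gene symbol for 15097 clusters, several for 323 and no symbol for 13474, so that 14324 genes were named. A gene with several clusters was read from the one with the highest mean over the 24 arrays, except that the study's cluster was used for Ccn3, Mmp2, Cd44 and Tgfb2. Of 249 genes in 19 lists, 208 were on the array.

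A cluster was kept if it reached log2 6 on 4 or more of 6 arrays in lithium cortex or lithium medulla (15663, with 9312 named genes). Each array was centred on its median. Medulla minus cortex was tested within animals, and its change between diets over the 12 animals, in R 4.3.3 by limma 3.58.1 with empirical Bayes moderation, Benjamini-Hochberg adjustment and a threshold of 0.05. Numbers in the titles tie the tissues of an animal. Deviations from the group means of the 5 lithium animals with a cortex array of their own correlated at -0.02 to 0.43 between tissues, and the correlation was highest with the own number in 3 of 5. Named genes were Ccn3, Mmp2, Cd44, Tgfb2, Aqp2 and Slc14a2, the 10 largest differences each way without overlap, up to 3 genes per list by the difference and up to 2 by its change among those past the threshold, and the 5 control-chosen markers per tissue with the lowest ratio; other list members are given by their values. The members and lists were chosen with earlier results of these data known. The fits were tested on simulated data. Alternatives were no centring, quantile normalization over both tissues, ranks, no filter, a filter of 7, no animal block, scan group, a 1.5-fold minimum, the methods' t-test and leaving out each animal. Tables used Python 3.11.15 with numpy 2.4.6 and pandas 2.3.3, and figures matplotlib 3.10.9. Promoters are RefSeq's (GRCr8).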

Additional observations from a re-analysis of the deposited data

Results flagged for a closer look

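Sets of lithium values, of 6 medulla or 5 cortex arrays each, were examined for the genes and lists named. Of 226 sets, 17 had 1 array far from the others by Dixon's criterion, which chance alone meets in about 1 in 20 sets. The cortex array of animal 19 gave 11 of them: it was highest for Akr1b1 (8.79), Angpt2 (6.09), Cd44 (7.12), Clic5 (8.86), Lgals3 (8.55) and the means of the fibroblast and matrix (8.90) and epithelial injury (8.22) lists, and lowest for Akr1c1 (8.34), Egf (9.04), Slc34a1 (11.71) and the mean of the intercalated cell list (7.84). The others were medulla arrays of animal 6 for Ccn3 (9.01) and Nt5c1a (6.00), of animal 17 for Fn1 (9.25) and the red blood cell list (7.02), of animal 18 for Vcan (6.30), and the cortex array of animal 6 for the urothelium list (5.09). Sets of cortex values leave out the array of animal 17 that equals the group mean.

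Some of the 94 genes examined were chosen for a passing change or a low ratio, so their share of calls is partly built in. Over all clusters the change passed above 0 at 0.728% and below 0 at 1.96%. Of the 94 genes, 28 had a tissue difference that differed between lithium and control rats at a limma adjusted p under 0.05. With scan group in the fit 4 of these passed (Adm2, Ccl28, Nt5c1a and Anxa5). The lithium minus control change was above 0 for 10: Hsd11b2 (2.16), Trpv5 (2.12), Adm2 (1.95), Slc8a1 (1.81), Ccl28 (1.69), Ccn3 (1.58), Klk1 (1.53), Nt5c1a (1.30), Calb1 (1.16) and Klk1b3 (1.06). For Slc8a1, Trpv5, Klk1, Klk1b3, Calb1 and Nt5c1a this was a smaller difference in favour of cortex. It was below 0 for 18, among them the medulla markers Loxl4 (-2.01), Vcan (-1.88), Pcsk6 (-1.79), Angpt2 (-1.69), Aqp4 (-1.68), Nupr1 (-1.60), Slc5a3 (-1.21), Cryab (-1.01) and Prox1 (-0.96). Anxa5 (-1.65), Lgals3 (-1.23), the endothelial Emcn (-1.01) and Esam (-0.92) and S100a11 (-0.74) also differed less in favour of medulla. Podxl (-0.93) was lower in medulla in lithium rats alone at this threshold, and the cortex genes Slc34a1 (-1.14), Acmsd (-0.86) and Slc6a19 (-0.55) differed more in favour of cortex.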

How the results depend on the processing

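All control-chosen cortex markers passed in lithium rats under every alternative run for them. Of the medulla markers, 98% to 100% did when single rats were left out (98% without rat 21), and 99% with 100 markers each way. For the other scalings and filters the 50 markers were chosen anew, so the same genes were not followed there. Leaving out each lithium rat gave 4762 to 5375 clusters higher and 3028 to 3627 lower in medulla, 47 to 48 members of the cortex lists lower and 22 to 24 members of the medulla lists higher. The pairing by animal mattered little: with no replicate block the counts were 5396 and 3353, and the change between diets passed at 111 clusters above and 277 below. Deposited values with no centring gave 11474 higher, 1480 lower and 193 clusters with a change below 0. That last count was 116 after quantile normalization, 119 with ranks and 189 with no filter, which gave 9887 lower in medulla. With scan group in the fit the change passed at 7 clusters above and 1 below. Asking also for a 1.5-fold difference left 2041 higher and 1677 lower, the methods' t-test gave 2005 and 1658, and with Benjamini-Hochberg adjustment 1955 and 1626. Leaving out single rats gave 22 to 161 clusters with a change above 0 and 26 to 590 below, and rats 17, 18, 21, 22, 1, 15, 16 and 30 moved both counts by over 1.5 times, rat 19 (74) the first and rat 29 (590) the second; the cause was not tested. Among single genes, tissue differences that had not passed took the other sign without centring for Nt5c1a (0.29, then past the threshold), Slc8a1 (0.21) and Trpv5 (0.33) and, without replicate 6, for Trpv5 (0.20; -0.24 to 0.20 over the rats left out). Tgfb2 without centring and Rab9b without rat 21 no longer passed. In 6 cases, each 1 gene under 1 alternative, a difference that had not passed kept its sign and came past the threshold. Of the 28 changes between diets that passed among the 94 genes examined, 24 no longer passed with scan group in the fit. When a single rat was left out, 1 (without rat 29) to 21 (without rat 17) no longer passed. The list member Trpv6 was not among the 94. Its change passed as well, and not with scan group (limma adjusted p = 0.0130 and 0.0700).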
